A study of Homo sapiens with 4 samples.

Results

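The 9 genes of steroid hormone action described here are the nuclear receptors *ESR1*, *ESR2*, *PGR* and *NR3C1*, the membrane-associated receptor component *PGRMC1*, the coactivators *NCOA1*, *NCOA2* and *NCOA3*, and the estrogen target *GREB1*. They were taken from the RNA-seq table by gene name and are 9 of its 33880 genes. KGN is an established line of human ovarian tumor cells with granulosa cell features. The study compared KGN cells carrying a control lentivirus (LV-CON, 2 libraries) with KGN cells carrying a lentivirus that expresses *TOX3* (LV-TOX3, 2 libraries). Both groups received virus at 1:200 in the medium and then 2 mg/mL puromycin, as the labels give it, over the same number of passages, so viral infection and drug selection were common to all 4 libraries. The labels give no separate cultures for the replicate numbers. The p-values below thus measure at most the spread between these libraries, which may be technical.

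Depth was alike in the groups, at 17757132 (replicate 1) and 17858746 reads (replicate 2) for LV-CON and at 17413376 and 16403371 reads for LV-TOX3. *TOX3* (16:52436417-52547802, hg38) was not sampled in LV-CON (0 reads in each library) but reached 1586 and 1428 reads in LV-TOX3, or 18.1 and 17.3 RPKM (reads per unit of gene length and of library depth). With 3 reads per library as the floor for LV-CON, LV-TOX3 was at least 528-fold higher. Of the granulosa cell markers, *FOXL2* was at 10.5 to 11.0 RPKM and *NR5A1* at 21.0 to 21.7 RPKM in the 4 libraries, whereas *AMHR2* was near 0, at 0.0159 to 0.147 RPKM. *HSD17B1* was also low, at 0.277 to 0.550 RPKM. The other 12 of the 14 listed markers reached a mean of 0.5 RPKM. The lowest of these were *INHA*, at 0.703 to 1.09 RPKM, and *WT1*, at 0.852 to 1.10 RPKM. The follicle stimulating hormone receptor gene *FSHR* was at 5.15 and 5.95 RPKM in LV-CON and at 9.62 and 10.0 RPKM in LV-TOX3. Its log2 fold change of 0.81 had an unadjusted p of 0.00059 and an adjusted p of 0.55 by limma with Benjamini-Hochberg adjustment. The epithelial marker *GRHL2*, the theca cell marker *INSL3* and the macrophage marker *CD68* had 0 reads in all 4 libraries, but other genes of those lists were expressed: *KRT8* was at 10.0 to 11.7, *KRT19* at 2.37 to 5.06, *STAR* at 3.92 to 5.91, *KDR* at 2.27 to 3.04 and *PTPRC* at 0.501 to 0.763 RPKM. The epithelial keratin gene *KRT7* was at 3.18 ± 0.259 RPKM in LV-CON and 2.19 ± 0.358 RPKM in LV-TOX3 (log2 fold change -0.53), with an unadjusted p of 0.022 and an adjusted p of 0.71 by limma with Benjamini-Hochberg adjustment. With 1 library left out at a time, its log2 fold change ran from -0.69 without LV-TOX3 replicate 2 to -0.37 without LV-TOX3 replicate 1. A fit with 1 library in a group cannot measure the spread there, so the effect size is given here. The stromal collagen gene *COL1A1*, at 1326 to 1437 RPKM, made up most of the summed level of the theca and stroma list, which was 1340 and 1412 RPKM in LV-CON and 1425 and 1447 RPKM in LV-TOX3. The epithelial list summed to 18.1 and 18.9 RPKM in LV-CON and to 16.2 and 19.7 RPKM in LV-TOX3. The part of these marker levels in the results below was not tested.

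Estrogens, progesterone and glucocorticoids enter cells and bind nuclear receptors, which are ligand-activated transcription factors kept ready for ligand by HSP90 chaperones. A receptor with bound ligand recruits the p160 coactivators NCOA1, NCOA2 and NCOA3, which in turn bring histone acetyltransferases to the target gene. In the ovary, estrogen receptor beta is known as the main estrogen receptor of granulosa cells, and the progesterone receptor is known to be induced in granulosa cells by the ovulatory surge.

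*PGR* is itself a classical estrogen target, and its estrogen-responsive promoter is known to pair an arm of an estrogen response element with neighbouring Sp1 sites. The promoter windows of RefSeq (GRCh38.p14, from 250 bases before to 50 bases after each transcript start) were searched on both strands for this arrangement. The stretch found in *PGR* is shown because it links an estrogen receptor motif to the progesterone receptor gene described below. It lies on chromosome 11, minus strand, at chr11:101129219-101129243, begins 570 bases downstream of the GENCODE 5′ end of the gene, and falls in an exon and in the untranslated region of 2 *PGR* transcripts. The capitals mark, from left to right, the arm (TGACC, the complement of GGTCA) and 2 GC boxes (CCGCCC, the complement of GGGCGG), with 4 bases between neighbouring motifs.
PGR site: TGACCagcgCCGCCCtcccCCGCCC

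Windows were found for 7 of the 9 genes, 26 windows in all. *GREB1* had no matching entry and *NCOA2* was not searched. The arm GGTCA occurred in 7 windows of 4 genes (*ESR1*, *ESR2*, *PGR* and *NR3C1*). Some windows of *ESR2* and of *PGR* overlap and count the same arm more than once. The full palindrome, GGTCA and TGACC with any 3 bases between them, was in 0 windows. Both the arm and a GC box GGGCGG were present in 2 windows, both of them among the 3 windows of *PGR*. These 2 windows overlap and hold the same arm, that of the stretch shown above. Over all 35116 windows, the arm was found in 37.4%, the GC box in 45.0%, the full palindrome in 0.0570%, the arm together with a GC box in 15.0%, and the arm within 20 bases of a GC box in 4.26%. The match is a description of the letters, not evidence of binding.

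The 9 genes covered a wide range of expression. Levels are in RPKM, which divides by gene length, so that genes can be set beside each other. *PGRMC1* was the most abundant, at rank 492 of the 33880 genes by mean RPKM. *NR3C1* followed at rank 2584. The coactivators *NCOA3*, *NCOA1* and *NCOA2* were at ranks 5048, 6554 and 6568, and *PGR* at rank 10484. *GREB1* was at rank 17047, *ESR1* at rank 19115 and *ESR2* at rank 25084. In LV-CON the order from high to low was *PGRMC1*, *NR3C1*, *NCOA3*, *NCOA1*, *NCOA2*, *PGR*, *GREB1*, *ESR1* and *ESR2*, and the only neighbours whose library ranges overlapped were *NCOA1* and *NCOA2*. In LV-TOX3, *NCOA2* stood above *NCOA1* with overlapping ranges, and the ranges of *GREB1* and *ESR1* also overlapped. The lengths behind these RPKM values span all transcripts of a gene, so the level of a gene expressed as a single short transcript is understated.

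**Figure D1:**
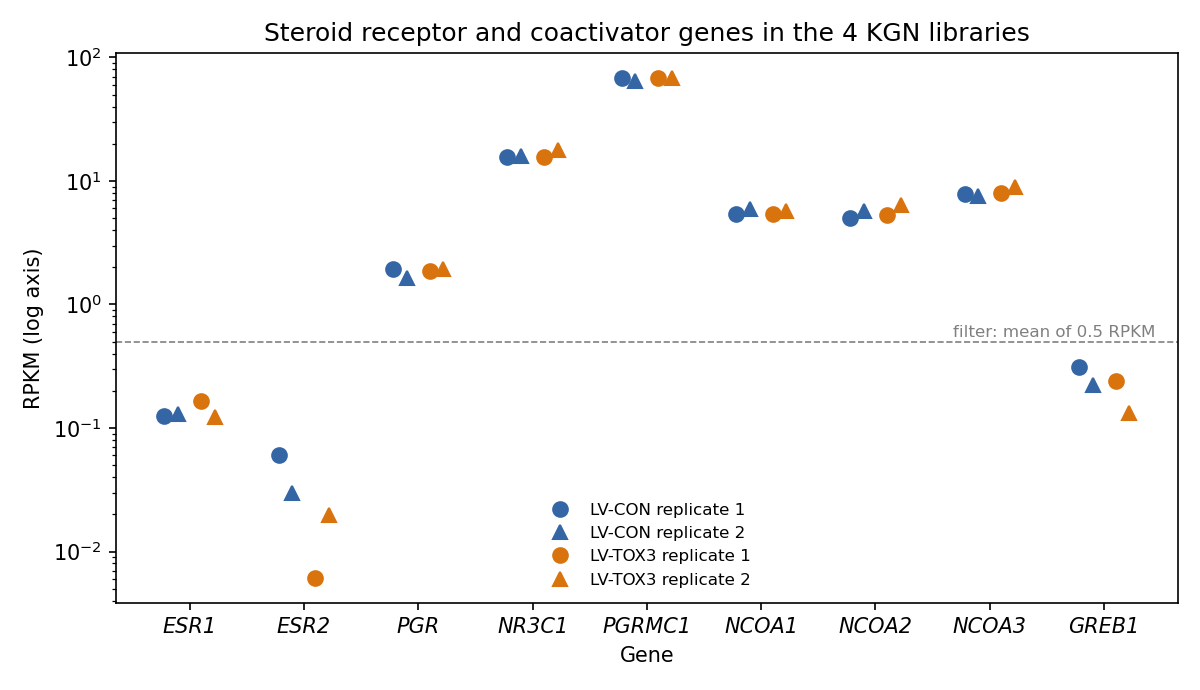
RPKM (log axis) of the 9 genes in each of the 4 libraries, with LV-CON in blue, LV-TOX3 in orange, circles for replicate 1 and triangles for replicate 2. *PGRMC1* lies between 64.3 and 68.1 RPKM, while *ESR1*, *ESR2* and *GREB1* lie under the dashed line at a mean of 0.5 RPKM, below which genes were not in the main test.

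Messenger RNA for estrogen receptor alpha, encoded by *ESR1* (ENSG00000091831, 6:151656691-152129619, plus strand), was scarce. Its level was 0.126 and 0.129 RPKM in LV-CON and 0.166 and 0.123 RPKM in LV-TOX3, from 31, 32, 40 and 28 reads. The groups overlapped, since replicate 1 of LV-TOX3 was the highest and replicate 2 of LV-TOX3 the lowest library. The log2 fold change of RPKM + 0.1 was 0.10 (SE 0.32), with an adjusted p of 0.95 by limma with Benjamini-Hochberg adjustment in a fit without the filter on low values. Its 95% interval, -0.81 to 1.01, spans a fold of 0.569 to 2.01 in RPKM + 0.1. The pseudocount draws this fold toward 1 at such a level, so the interval does not bound the fold of RPKM.

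*ESR2* (ENSG00000140009, 14:64084232-64338112, minus strand), which encodes estrogen receptor beta, was the lowest of the 9 genes. LV-CON gave 10 and 5 reads (0.0603 and 0.0300 RPKM), and LV-TOX3 gave 1 and 3 (0.00615 and 0.0196 RPKM). Both LV-TOX3 libraries were below both LV-CON libraries, a pattern found in 9.39% of the 14904 expressed genes under the filter. The 95% Poisson intervals, which cover counting error only, ran from 4.80 to 18.4 and from 1.62 to 11.7 reads for LV-CON and from 0.0253 to 5.57 and from 0.619 to 8.77 reads for LV-TOX3, so each LV-TOX3 interval overlapped both LV-CON intervals. The log2 fold change of RPKM + 0.1 was -0.36 (SE 0.24, adjusted p 0.78 by limma with Benjamini-Hochberg adjustment, fitted without the filter). In this range the pseudocount sets much of that value: limma-voom on the recovered reads gave -1.66, with an unadjusted p of 0.080 and an adjusted p of 0.81. The reads summed per group, 15 against 4, gave 0.281 times as many per read sequenced in LV-TOX3, with an exact 95% interval of 0.0679 to 0.882 that covers counting error only. Counting error alone thus left 1 outside the interval of the summed reads, while the difference did not pass the tests that include the spread between libraries. The exons of *ESR2* share 523 bases (4.381% of their length) with a non-coding gene on the same strand that had 4, 0, 2 and 4 reads, more than *ESR2* itself in each LV-TOX3 library, and reads from the shared bases cannot be told apart.

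The ratio of *ESR1* to *ESR2* RPKM was 2.09 and 4.31 for the LV-CON libraries and 27.0 and 6.29 for the LV-TOX3 libraries. The highest of these rests on the single *ESR2* read of LV-TOX3 replicate 1. In all 4 libraries *ESR1* was above *ESR2*.

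*PGR* (ENSG00000082175, 11:101029624-101129813, minus strand), the progesterone receptor gene, was expressed at a low but well-counted level. It was at 1.94 and 1.64 RPKM in LV-CON (531 and 451 reads) and at 1.86 and 1.92 RPKM in LV-TOX3 (498 and 486 reads). The LV-TOX3 values lay between the LV-CON values. The means were 1.79 ± 0.213 (SD, n = 2) and 1.89 ± 0.0473 RPKM (SD, n = 2). A log2 fold change of 0.08 was fitted (SE 0.16; 95% interval -0.33 to 0.49, or 0.796-fold to 1.40-fold; adjusted p 0.95 by limma with Benjamini-Hochberg adjustment). *PGR* was 12.7 to 15.4 times as abundant as *ESR1* in LV-CON and 11.2 to 15.6 times in LV-TOX3. Its exons share 737 bases with the antisense gene *PGR-AS1*, which had 11, 4, 2 and 12 reads. The use of strand in counting is not stated in these sources, but these reads are few beside those of *PGR*.

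The glucocorticoid receptor gene *NR3C1* (ENSG00000113580, 5:143277931-143435512, minus strand) was the most abundant nuclear receptor among the 9 genes. Its level was 15.7 and 15.9 RPKM in LV-CON and 15.5 and 17.8 RPKM in LV-TOX3, from 2551, 2600, 2473 and 2671 reads. LV-TOX3 replicate 2 was the highest library and LV-TOX3 replicate 1 the lowest, so the groups overlapped. The fitted log2 fold change was 0.07 (SE 0.09; 95% interval -0.17 to 0.31, or 0.890-fold to 1.24-fold; adjusted p 0.92 by limma with Benjamini-Hochberg adjustment). *NR3C1* stood 8.07 and 9.68 times above *PGR* in LV-CON and 8.34 and 9.23 times above it in LV-TOX3.

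Of the other 41 nuclear receptor genes listed, 37 were in the table and 23 passed the filter of a mean of 0.5 RPKM. Their log2 fold changes were positive in 7 and negative in 16, with a median of -0.05, beside a median of -0.01 over all 14184 genes tested. None passed an unadjusted or an adjusted p of 0.05 by limma. The smallest p-values belonged to *NR1D2*, a repressor of the circadian clock (14.5 ± 0.775 RPKM in LV-CON and 16.3 ± 0.534 RPKM in LV-TOX3, log2 fold change 0.17), to the thyroid hormone receptor gene *THRA* (-0.17) and to the retinoid X receptor gene *RXRB* (-0.15).

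*PGRMC1* (ENSG00000101856, X:119236245-119244466, plus strand) encodes a heme-binding membrane protein that is associated with non-genomic progesterone responses. It was also the steadiest of the 9 genes, with a coefficient of variation of 2.69% over the 4 libraries. Its level was 68.0 and 64.3 RPKM in LV-CON and 67.5 and 68.1 RPKM in LV-TOX3. The LV-CON values spanned 1 of the 2 LV-TOX3 values, so the groups overlapped. Between groups the log2 fold change was 0.04 (SE 0.07; adjusted p 0.95 by limma with Benjamini-Hochberg adjustment), and its 95% interval of -0.13 to 0.21 limits the difference to between 0.911-fold and 1.15-fold. *PGRMC1* was 35.0 and 39.2 times as abundant as *PGR* in LV-CON and 36.4 and 35.4 times in LV-TOX3.

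Among 10 further genes for membrane steroid receptors and their partners, 7 were tested. The paralog *PGRMC2* was at 60.8 and 47.6 RPKM in LV-CON and at 58.4 and 62.7 RPKM in LV-TOX3, close to the level of *PGRMC1*. The membrane progestin receptor genes were far lower: *PAQR8* was at 3.75 ± 0.761 RPKM in LV-CON and 4.05 ± 0.606 RPKM in LV-TOX3, and *PAQR5* at 0.871 ± 0.0482 and 0.770 ± 0.0191 RPKM. None of the 7 passed an unadjusted p of 0.05 by limma, and 3 had positive and 4 negative log2 fold changes.

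The p160 coactivator genes were expressed at similar levels. *NCOA1* (ENSG00000084676, 2:24491254-24770702, plus strand) was at 5.41 and 5.88 RPKM in LV-CON and at 5.41 and 5.71 RPKM in LV-TOX3. *NCOA2* (ENSG00000140396, 8:70109782-70403808, minus strand) was at 4.98 and 5.72 RPKM in LV-CON and at 5.29 and 6.35 RPKM in LV-TOX3. For both genes replicate 2 was above replicate 1 in each group, and the groups overlapped. The log2 fold change of *NCOA1* was -0.02 (SE 0.10; 95% interval 0.831-fold to 1.17-fold; adjusted p 0.98 by limma with Benjamini-Hochberg adjustment). That of *NCOA2* was 0.12 (SE 0.13; 95% interval 0.853-fold to 1.38-fold; adjusted p 0.90 by the same test).

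*NCOA3* (ENSG00000124151, 20:47501887-47656877, plus strand), also known as amplified in breast cancer 1, was the most abundant of the p160 genes. It was at 7.79 and 7.54 RPKM in LV-CON and at 8.04 and 8.90 RPKM in LV-TOX3, from 1162, 1131, 1176 and 1226 reads. Both LV-TOX3 libraries were above both LV-CON libraries, and *NCOA3* was the only one of the 6 tested genes of the 9 for which the groups did not overlap. This pattern was shared by 17.0% of all genes tested. The means were 7.66 ± 0.177 (SD, n = 2) and 8.47 ± 0.606 RPKM (SD, n = 2). The log2 fold change of 0.14 (SE 0.09; 95% interval -0.10 to 0.38, or 0.935-fold to 1.30-fold) did not pass the test, with an unadjusted p of 0.19 and an adjusted p of 0.82 by limma with Benjamini-Hochberg adjustment. Its exons share 247 bases with *SULF2* on the other strand, which had 12, 13, 8 and 7 reads.

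The summed level of the p160 genes was 18.2 and 19.1 RPKM in LV-CON and 18.7 and 21.0 RPKM in LV-TOX3. Of this sum *NCOA3* made up 42.9% and 39.4% in the LV-CON libraries and 42.9% and 42.4% in the LV-TOX3 libraries. *NCOA1* held 29.8% and 30.7% of the sum in LV-CON as against 28.9% and 27.3% in LV-TOX3, so its share was lower in both LV-TOX3 libraries, by less than 4 percentage points between any pair of libraries. *NCOA2* held 27.4% and 29.9% of it in LV-CON as against 28.2% and 30.3% in LV-TOX3, with overlapping groups. With 2 libraries against 2, an exact permutation test of such shares cannot go below p = 0.33.

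Of 36 other coactivator genes, 34 were tested. Positive log2 fold changes were found in 18 and negative ones in 16, the median was 0.00, and none passed an unadjusted p of 0.05 by limma. The smallest p-values were those of *TRIM24*, which encodes a bromodomain cofactor of nuclear receptors (5.28 ± 0.254 RPKM in LV-CON and 6.35 ± 0.586 RPKM in LV-TOX3, log2 fold change 0.26), of the estrogen receptor cofactor gene *PELP1* (8.01 ± 0.662 and 6.90 ± 0.101 RPKM, log2 fold change -0.21) and of the histone methyltransferase gene *KMT2C* (0.22).

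Some corepressors bind receptors that have no ligand or an antagonist. Of 20 listed genes 18 were tested, 6 with positive and 12 with negative log2 fold changes, and the median was -0.03. *SAFB*, which encodes a scaffold attachment factor known to repress estrogen receptor alpha, was at 12.8 and 13.3 RPKM in LV-CON and at 10.9 and 9.05 RPKM in LV-TOX3. Its log2 fold change was -0.39 (SE 0.11), with an unadjusted p of 0.019 and an adjusted p of 0.69 by limma with Benjamini-Hochberg adjustment. An unadjusted p under 0.05 was found in 6.80% of all genes tested, and together with an absolute log2 fold change over 0.3, as for *SAFB*, in 4.92%. With 1 library left out at a time, the log2 fold change of *SAFB* ran from -0.52 without LV-TOX3 replicate 1 to -0.26 without LV-TOX3 replicate 2. The paralog *SAFB2* was at 8.84 and 8.21 RPKM in LV-CON and at 7.60 and 6.63 RPKM in LV-TOX3, with a log2 fold change of -0.26 and an unadjusted p of 0.057 by limma. *TBL1X*, which encodes a subunit of the NCoR corepressor complex, was at 15.3 ± 0.453 RPKM in LV-CON and 13.3 ± 0.826 RPKM in LV-TOX3, with a log2 fold change of -0.20 and an unadjusted p of 0.064 by limma. *SAFB* and *SAFB2* are similar in sequence, and how reads common to both were assigned was not tested.

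The chaperones that hold receptors in a ligand-ready state had small differences. Of 18 tested genes, 4 had positive and 14 negative log2 fold changes, with a median of -0.07, and none passed an unadjusted p of 0.05 by limma. *HSP90AB1*, the constitutive HSP90 gene, was at 517 and 525 RPKM in LV-CON and at 481 and 493 RPKM in LV-TOX3, which is -0.10 on the log2 scale. *STIP1*, which encodes the adaptor between HSP70 and HSP90, was at 34.0 ± 1.16 RPKM in LV-CON and 31.7 ± 0.566 RPKM in LV-TOX3, and *AHSA1*, an activator of the HSP90 ATPase, at 28.5 ± 0.114 and 26.4 ± 0.890 RPKM. Both LV-TOX3 libraries were below both LV-CON libraries for 8 of the 18 genes, beside 20.6% of all genes tested.

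*GREB1* (ENSG00000196208, 2:11482341-11642788, plus strand) encodes a chromatin-bound cofactor of estrogen receptor alpha and is an early estrogen target in breast cancer cells. It was at 0.310 and 0.222 RPKM in LV-CON and at 0.242 and 0.133 RPKM in LV-TOX3, from 68, 49, 52 and 27 reads. LV-TOX3 replicate 2 was the lowest library, and replicate 1 of LV-TOX3 lay between the LV-CON libraries, so the groups overlapped. The log2 fold change of RPKM + 0.1 was -0.36 (SE 0.40; 95% interval -1.51 to 0.78, or 0.352-fold to 1.71-fold; adjusted p 0.82 by limma with Benjamini-Hochberg adjustment, fitted without the filter). The pseudocount draws these folds toward 1 at such a level. Within LV-CON alone, replicate 2 was lower than replicate 1 by 0.35 on this log2 scale. The reads summed per group, 117 against 79, gave 0.711 times as many per read sequenced in LV-TOX3, with an exact 95% interval of 0.528 to 0.954 that covers counting error only. That interval leaves out the spread between libraries, which the limma interval includes.

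Of 30 further estrogen targets listed, 20 were tested, 7 with positive and 13 with negative log2 fold changes and a median of -0.06. The cyclin gene *CCND1* was at 42.2 and 48.7 RPKM in LV-CON and at 35.7 and 39.4 RPKM in LV-TOX3, and *STC2*, which encodes the secreted glycoprotein stanniocalcin-2, was at 55.5 and 54.2 RPKM in LV-CON and at 47.4 and 43.3 RPKM in LV-TOX3. Both genes were lower in both LV-TOX3 libraries, a pattern of 4 of the 20 tested targets and of 20.6% of all genes tested. Each had a log2 fold change of -0.27, with unadjusted p-values of 0.043 and 0.015 and adjusted p-values of 0.72 and 0.67 by limma with Benjamini-Hochberg adjustment. They were the 2 of the 20 past an unadjusted p of 0.05, beside 6.80% of all genes tested. With 1 library left out at a time, the log2 fold change of *CCND1* ran from -0.38 without LV-CON replicate 1 to -0.17 without LV-CON replicate 2. That of *STC2* ran from -0.34 without LV-TOX3 replicate 1 to -0.21 without LV-TOX3 replicate 2. *CELSR2*, an adhesion cadherin gene, was next by p, with a log2 fold change of 0.27 (SE 0.12).

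Among the 16 tested progesterone targets, 1 passed both unadjusted thresholds, a share near the 4.92% of all genes tested. *ADAMTS1*, which encodes a secreted protease that depends on the progesterone receptor in the mouse follicle at ovulation, was at 27.5 and 27.8 RPKM in LV-CON and at 20.7 and 21.2 RPKM in LV-TOX3. The gap between groups was wider than the gap within either group. Its log2 fold change was -0.40 (SE 0.07), with an unadjusted p of 0.0019 and an adjusted p of 0.66 by limma with Benjamini-Hochberg adjustment. That log2 fold change was -0.42 to -0.38 when any 1 library was left out. Of the tested genes in the list, 7 had positive and 9 negative log2 fold changes, with a median of -0.01. The protease gene *CTSL* (351 ± 41.1 RPKM in LV-CON and 399 ± 33.4 RPKM in LV-TOX3) and the transcription factor gene *RUNX1* (7.21 ± 0.271 and 7.81 ± 0.186 RPKM) were next by p and did not pass.

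Glucocorticoid targets were tested for 15 of 21 listed genes, 8 with positive and 7 with negative log2 fold changes and a median of 0.02. *CEBPD*, a transcription factor gene induced early by glucocorticoids, was at 9.05 and 7.33 RPKM in LV-CON and at 13.6 and 11.6 RPKM in LV-TOX3. Both LV-TOX3 libraries were above both LV-CON libraries, a pattern of 4 of the 15 tested targets and of 17.0% of all genes tested. Its log2 fold change was 0.62 (SE 0.14), with an unadjusted p of 0.0073 and an adjusted p of 0.66 by limma with Benjamini-Hochberg adjustment. With 1 library left out at a time, its log2 fold change ran from 0.47 without LV-CON replicate 2 to 0.77 without LV-CON replicate 1. The inhibitor of apoptosis gene *BIRC3* was at 0.757 and 0.358 RPKM in LV-CON and at 1.08 and 0.981 RPKM in LV-TOX3 (log2 fold change 0.85, SE 0.41), and the phosphatase gene *DUSP1* was at 36.5 ± 4.93 RPKM in LV-CON and 40.8 ± 0.576 RPKM in LV-TOX3. Neither passed an unadjusted p of 0.05.

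Enzymes that make or inactivate receptor ligands were tested for 11 of 18 listed genes, 7 with positive and 4 with negative log2 fold changes and a median of 0.06. *CYP19A1*, which encodes the aromatase that turns androgens into estrogens, was at 7.08 and 4.25 RPKM in LV-CON and at 13.8 and 7.37 RPKM in LV-TOX3. The groups of *CYP19A1* did not overlap, a pattern found with LV-TOX3 higher in 17.0% of all genes tested. Replicate 1 of LV-CON was within 0.3 RPKM of replicate 2 of LV-TOX3. Its log2 fold change of 0.87 (SE 0.37) had an unadjusted p of 0.070 and an adjusted p of 0.73 by limma with Benjamini-Hochberg adjustment. Its place against the unadjusted threshold depended on the fit: the unadjusted p was 0.020 by limma-voom on the recovered reads (adjusted p 0.64). The log2 fold change ran from 0.42 without LV-TOX3 replicate 1 to 1.31 without LV-TOX3 replicate 2. *H6PD*, which supplies NADPH to the enzyme that regenerates cortisol, was at 5.99 ± 1.02 RPKM in LV-CON and 6.96 ± 0.137 RPKM in LV-TOX3, and *AKR1C1*, which inactivates progesterone, at 4.59 ± 0.263 and 4.03 ± 0.461 RPKM.

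**Figure D2:**
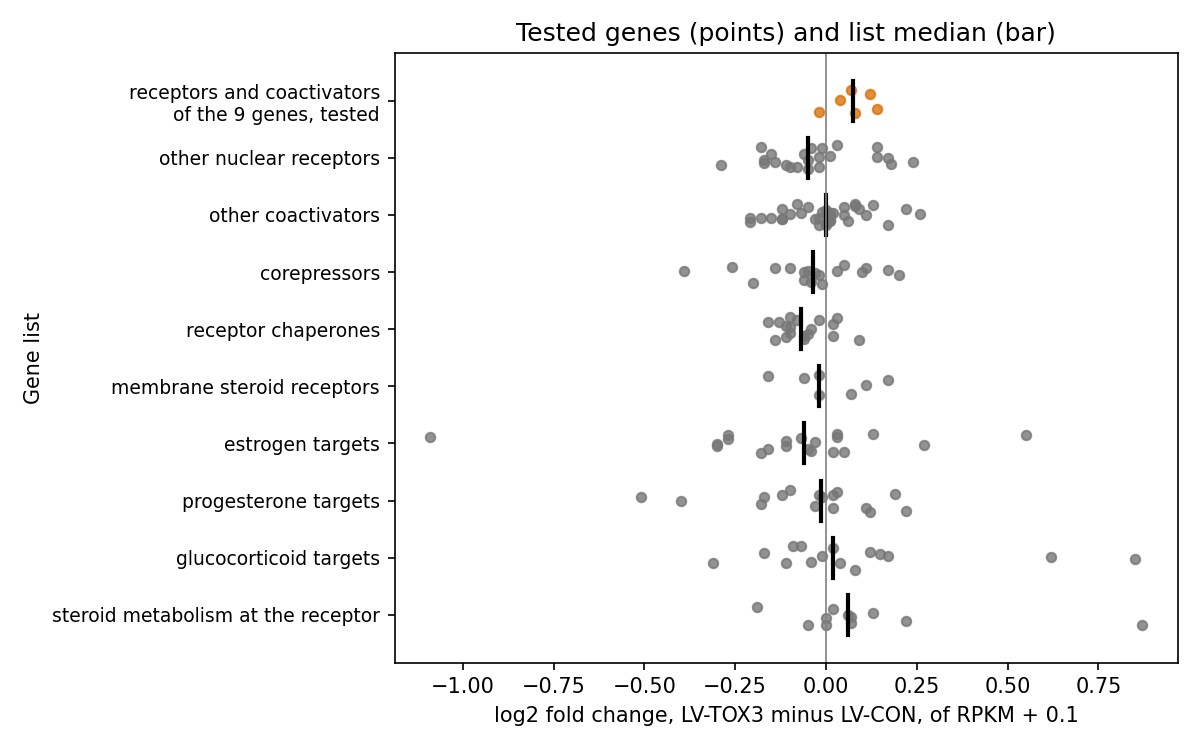
Log2 fold change (LV-TOX3 minus LV-CON, of RPKM + 0.1) of each tested gene in the 6 tested receptor and coactivator genes (orange) and in 9 related gene lists (grey), with the median of each list as a black bar. The medians lie between -0.07 and 0.08. The points of the estrogen target *AREG* at -1.09 and of *CYP19A1* at 0.87 are among the farthest from 0.

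Across the 9 genes, 6 passed the filter (*PGR*, *NR3C1*, *PGRMC1*, *NCOA1*, *NCOA2* and *NCOA3*), and the log2 fold change was above 0 for 5 of them and below 0 for *NCOA1*. Their median was 0.08, against -0.01 over all genes tested, of which 46.8% were positive. By limma, 0 of the 6 passed an adjusted p of 0.05, as did 0.00705% of all genes tested, which was *TOX3* alone. An unadjusted p of 0.05 was also passed by 0 of the 6, and by 0 of all 9 in the fit without the filter and 0 of the 9 by limma-voom on the recovered reads. The standard error of the 6 genes ran from 0.07 to 0.16, beside a median of 0.13 over all genes tested. The 95% intervals of these genes reached at most 1.40-fold and at least 0.796-fold, whereas those of *ESR1*, *ESR2* and *GREB1* reached from 0.352-fold to 2.01-fold. All are folds of RPKM + 0.1. For the last 3 genes the pseudocount draws them toward 1, so they do not bound the fold of RPKM. For *ESR2*, limma-voom on the recovered reads gave a log2 fold change of -1.66, and the summed reads gave a ratio of 0.281.

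**Figure D3:**
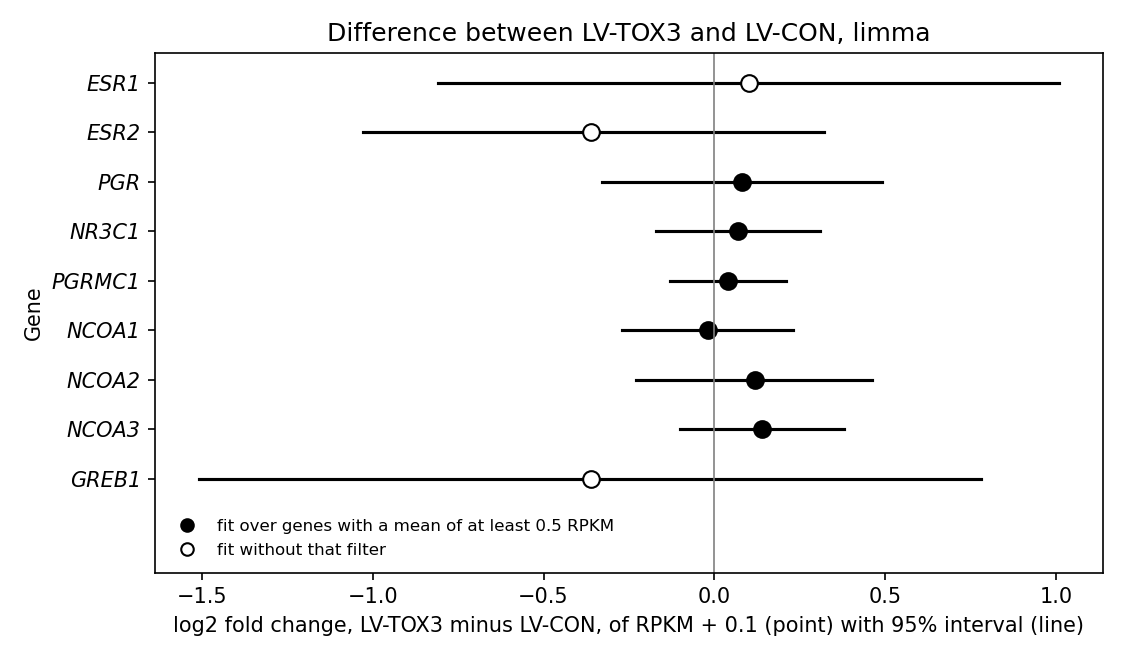
Log2 fold change (LV-TOX3 minus LV-CON, of RPKM + 0.1) of the 9 genes with 95% intervals from limma. Every interval spans 0, and those of *ESR1*, *ESR2* and *GREB1*, fitted without the filter, are the widest.

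Differences between replicate numbers within a group were as large as those between groups for several of the 9 genes. *NR3C1*, *NCOA1* and *NCOA2* were higher in replicate 2 than in replicate 1 in both groups, and *GREB1* was lower in replicate 2 in both, while the other 5 genes differed in opposite directions. For *NCOA2*, replicate 2 exceeded replicate 1 by 0.20 in LV-CON and by 0.26 in LV-TOX3 on the log2 scale, compared with differences between LV-TOX3 and LV-CON of 0.09 within replicate 1 and 0.15 within replicate 2. For *PGR* the difference between groups was -0.06 within replicate 1 and 0.22 within replicate 2. The sign of the difference between groups was the same within both numbers for 4 of the 9 genes, *ESR2*, *NCOA2*, *NCOA3* and *GREB1*. Among all genes tested the share was 59.8%, which leaves out genes under the filter such as *ESR2* and *GREB1*. The sources used here do not say what the replicate numbers stand for, and their part in these differences was not tested.

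**Figure D4:**
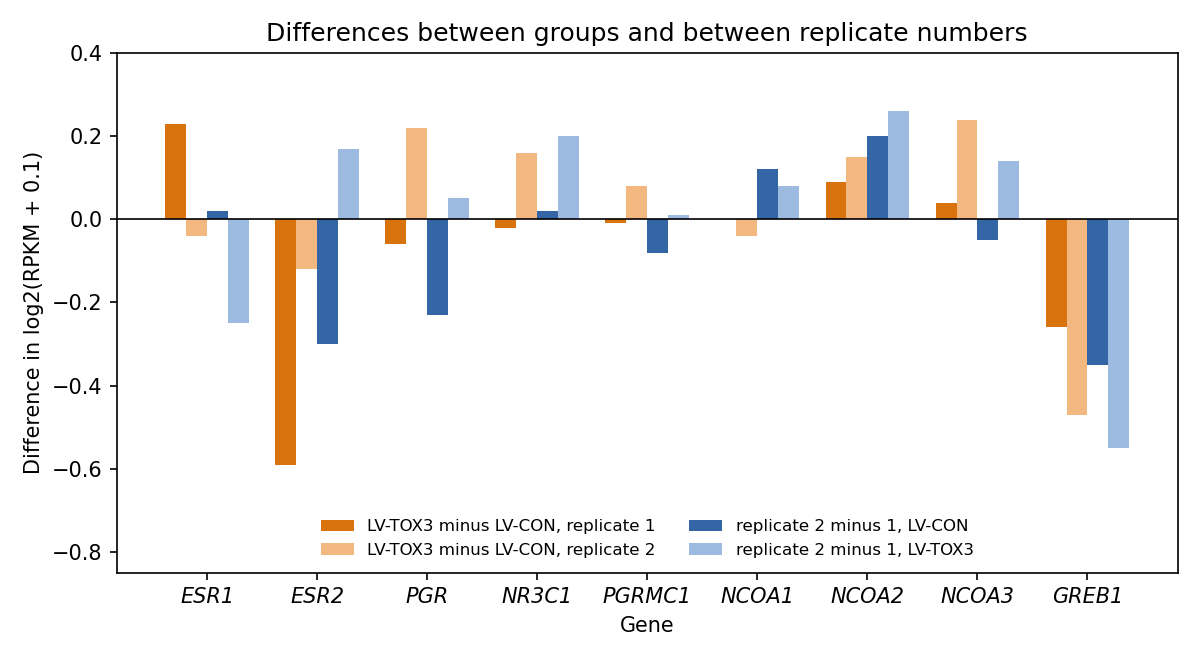
Log2 differences of RPKM + 0.1 for each of the 9 genes. Bars show LV-TOX3 minus LV-CON within replicate 1 and within replicate 2, then replicate 2 minus replicate 1 within LV-CON and within LV-TOX3. For LV-TOX3 minus LV-CON, *NCOA3* is at 0.04 and 0.24 and *GREB1* at -0.26 and -0.47, while *PGR*, *ESR1*, *NR3C1* and *PGRMC1* change sign.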

How the data were processed

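The deposited table gives RPKM for each gene in each library. The authors filtered reads with SOAPnuke and aligned them to hg38 with HISAT2. They also aligned reads to a set of coding genes and estimated expression by expectation maximization (RSEM). Tool versions are not in the sources used here. The methods also name ComBat, and the sources used here do not say whether it was applied to the deposited values. The other assays of the study were not analysed here. For all 29088 genes above 0, RPKM values were multiples of the value of 1 read (tolerance 0.001 of a read), from which reads and library totals were recovered. Values changed by ComBat would not in general keep that form. The recovery and the fit were tested on simulated data.

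LV-TOX3 (2 libraries) and LV-CON (2 libraries) were compared with limma 3.58.1 (R 4.3.3, trend, two-sided, no block) on log2(RPKM + 0.1) over the 14184 genes whose mean reached 0.5 RPKM, with Benjamini-Hochberg adjustment. *ESR1*, *ESR2* and *GREB1* were fitted without that filter. A second rule, with the thresholds that the study gives for its differential genes, was an unadjusted p of 0.05 and an absolute log2 fold change of 0.3. Coordinates are GENCODE v44 on hg38, which may not be the authors' release, and promoter windows are RefSeq GRCh38.p14. The 9 genes and the 13 lists beside them were chosen with earlier results of these data known. All 9 genes were named, with the 3 tested genes of smallest p from each of the 9 pathway lists and those markers that bear on the cell type. Of the listed genes, *NR1H4*, *NR1I2*, *RXRG*, *RORB*, *TFF1*, *TFF3*, *IHH*, *ZBTB16*, *SULT2A1*, *LHCGR*, *CD3E* and *MS4A1* were not analysed here. Among the marker lists, 12 granulosa genes were tested (6 positive, 6 negative), 5 theca and stroma (2 and 3), 3 epithelial (1 and 2) and 2 blood and vessel (1 and 1). Python 3.11.15, numpy 2.4.6, pandas 2.3.3 and scipy 1.17.1 were used. Alternatives were the pseudocount, the filter, the scaling, limma-voom on recovered reads, a replicate block and leaving out each library.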

Additional observations from a re-analysis of the deposited data

How the results depend on the processing

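Over 111 values of the 9 genes under the alternatives, 104 kept their direction, and none passed an adjusted or unadjusted p of 0.05 by limma. Leaving out 1 library at a time gave log2 fold changes of -0.03 to 0.22 for *ESR1*, -0.51 to -0.21 for *ESR2*, -0.04 to 0.19 for *PGR*, -0.03 to 0.17 for *NR3C1*, -0.0039 to 0.08 for *PGRMC1*, -0.08 to 0.04 for *NCOA1*, -0.01 to 0.25 for *NCOA2*, 0.07 to 0.21 for *NCOA3* and -0.64 to -0.09 for *GREB1*. The turns of sign came without LV-TOX3 replicate 1 for *ESR1* and *NCOA1* (0.02), without LV-CON replicate 2 for *PGR*, *PGRMC1* and *NCOA1* (0.04), and without LV-TOX3 replicate 2 for *NR3C1* and *NCOA2*. For all genes tested, 1 gene passed an adjusted p of 0.05 by limma. This count was 0 with a pseudocount of 0.01 and 0 with no filter. It was 1 with a replicate block, 1 by limma-voom and 614 by limma-voom with the replicate block, in which 0 of the 9 genes were called. That last fit also gave adjusted p-values of 1.2e-21 for *CYP19A1*, 2.0e-09 for *FSHR*, 3.3e-05 for *CEBPD* and 0.00015 for *SAFB*. It gave 0.031 for *KRT7*, 6.8e-06 for *ADAMTS1*, 0.0053 for *STC2* and 0.0069 for *CCND1*. With group and replicate both fitted to so few libraries, these p-values and the count of 614 rest mostly on a variance pooled over genes. By limma with the replicate block, the adjusted p-values in that order were 0.18, 0.18, 0.19, 0.30, 0.27, 0.19, 0.26 and 0.25. In that limma fit *CYP19A1* had an unadjusted p of 0.00018. Same-numbered libraries had correlated deviations (r = 0.19 over 14184 genes, which are not independent), but the numbers are not stated to pair the libraries. Genes past an unadjusted p of 0.05 and an absolute log2 fold change of 0.3 numbered 698 (324 higher and 374 lower in LV-TOX3), and 1401 without the filter (743 and 658), where more genes were tested. The balance of higher and lower genes was 355 and 347 with median ratio scaling and turned with single libraries: it was 406 and 309 without LV-CON replicate 1, 368 and 278 without LV-CON replicate 2, 378 and 425 without LV-TOX3 replicate 1, and 196 and 412 without LV-TOX3 replicate 2. The depth limits *ESR1*, *ESR2* and *GREB1*, with 1 to 68 reads a library.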
